A study of Mus musculus with 18 samples.

Results

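Transcripts of the tRNA modification enzymes were compared between the livers of *Rps2*-A226Y and wild-type mice. The set of 48 genes was named by symbol, by a rule that uses no measured value although earlier results of these data were known when the set was proposed, and each symbol was matched to an Ensembl identifier. Of the 48 genes, 46 were among the 22524 genes listed, all 46 passed the filter on low counts, and 13353 genes were tested in all. *Trmt61b* and *Adat3* were not analysed here. The enzymes acting on the anticodon loop by the rule of the set (the Elongator subunits, the *Ctu* and *Adat* genes, *Trmt5*, the *Tyw* genes, *Trit1* and *Cdkal1*) were set beside the rest, with 15 of 16 and 31 of 32 tested.

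The 10 A226Y mice were females of 15 months on a C57BL/6 background. They were heterozygous for a knock-in allele of *Rps2*, the gene of a protein of the small ribosomal subunit, that carries the A226Y substitution behind a loxP-flanked stop cassette, and they carried a CMV-Cre transgene that is active in all tissues. The 8 WT mice had the same age, sex and strain, and they also expressed Cre but carried no *Rps2* knock-in allele, so that the presence of Cre was shared by both genotypes. Excision by Cre was incomplete in the A226Y line, whose liver was therefore a mosaic of cells with the A226Y allele and cells in which the loxP allele remained silenced. The knock-in was made in 129/Sv embryonic stem cells and backcrossed to C57BL/6. In bulk liver, fewer cells of a type and less RNA per cell cannot be told apart.

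A tRNA carries many modified nucleotides, which are added after transcription by dedicated enzymes in the nucleus, the cytosol and the mitochondria. Modifications in the anticodon loop, in particular at the wobble base and at the purine on the 3′ side of the anticodon, tune codon reading and hold the reading frame. Those in the body of the molecule mainly stabilise its fold and protect it from decay. The comparison asks whether the transcripts of these enzymes differed in a liver with a ribosomal protein mutation that makes decoding error-prone. The study measured this effect of the mutation in transfected cultured cells. The silenced loxP allele also set the A226Y mice apart from WT, and its effect cannot be told apart here from that of the substitution.

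Promoter windows of RefSeq (build GRCm38.p6, 250 bases before to 50 bases after a start site) were found for 42 of the 48 genes. The windows below belong to genes whose values are given in full further on and that hold a match to one of the 5 short motifs searched on both strands. Capitals mark the match, each window reads 5′ to 3′ on the strand of the gene, and all other letters are in lower case. The window of *Nsun2* (chr13:69611766-69612065, plus strand) holds an ETS motif (CCGGAAGT) within the 50 bases after the start, and this start lies inside the longer gene model used for the counts. The window of *Trmt11* (chr10:30600651-30600950, minus strand) holds a GC box (GGGCGG) across the start. The windows of *Tyw1* (chr5:130256787-130257086, plus strand) and *Trmt1l* (chr1:151428292-151428591, plus strand) hold a GC box before the start, read on the other strand as CCGCCC. The start of this *Tyw1* window also lies inside the gene model used for the counts. The window at the start of that model (chr5:130255369-130255668) holds no match.
Nsun2: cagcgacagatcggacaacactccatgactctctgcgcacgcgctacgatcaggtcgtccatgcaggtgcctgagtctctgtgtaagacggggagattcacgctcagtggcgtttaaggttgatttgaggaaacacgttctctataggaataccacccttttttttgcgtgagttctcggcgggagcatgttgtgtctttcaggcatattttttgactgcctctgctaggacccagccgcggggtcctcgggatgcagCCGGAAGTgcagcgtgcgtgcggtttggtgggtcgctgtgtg
Trmt11: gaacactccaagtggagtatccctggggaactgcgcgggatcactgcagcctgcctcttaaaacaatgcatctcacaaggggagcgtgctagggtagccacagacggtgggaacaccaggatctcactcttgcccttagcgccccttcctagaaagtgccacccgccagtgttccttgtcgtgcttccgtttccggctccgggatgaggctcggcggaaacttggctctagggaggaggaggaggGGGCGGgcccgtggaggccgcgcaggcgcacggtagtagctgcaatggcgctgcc
Tyw1: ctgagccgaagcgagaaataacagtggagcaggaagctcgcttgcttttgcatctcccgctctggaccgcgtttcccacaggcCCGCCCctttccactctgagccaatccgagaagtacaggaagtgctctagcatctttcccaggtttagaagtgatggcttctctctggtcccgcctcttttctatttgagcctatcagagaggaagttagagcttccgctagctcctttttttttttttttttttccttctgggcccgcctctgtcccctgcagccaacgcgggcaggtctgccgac
Trmt1l: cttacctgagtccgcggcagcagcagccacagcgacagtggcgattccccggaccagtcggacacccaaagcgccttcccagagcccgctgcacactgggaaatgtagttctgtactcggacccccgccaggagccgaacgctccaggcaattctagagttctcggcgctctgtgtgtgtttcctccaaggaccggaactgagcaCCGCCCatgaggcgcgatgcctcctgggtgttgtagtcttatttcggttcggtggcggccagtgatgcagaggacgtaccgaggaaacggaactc

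Shares of windows with a motif were taken over 1 window per gene, the one listed first. The ETS motif was present in 16.7% of the 42 members' windows, in 7.98% of those of 10357 tested genes and in 4% of those of all 27025 genes. The E-box (CACGTG), which MYC and related factors bind, was present in 14.3%, 9.96% and 7.24% of the same sets, and the NRF1 core (GCGCATGC) in 11.9%, 5.21% and 2.8%. The GC box was present in 42.9% of the members' windows, below the 62.5% of tested genes and above the 35.9% of all genes. The YY1 motif (AAGATGGCG) was present in 4.76%, 3.09% and 1.49%. None of the searched letters was found in either window of *Trmt13* or in the window of *Tyw1* at the start of its gene model. A match describes letters in a window and shows no binding.

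*Rps2* (ENSMUSG00000044533, chr17:24718116-24721929, plus strand), counted over all its alleles, lay between 46.9 and 83 CPM (read counts relative to the TMM-scaled library size) in the A226Y mice and between 104 and 143 CPM in the WT mice, with no overlap between the genotypes (log2 fold change −0.73 ± 0.11 SE, adjusted p = 0.000772). Library totals lay between 23850565 and 62126131 counts for the A226Y genotype and between 25869192 and 34918732 counts for WT. The hepatocyte markers summed to between 76900 and 148900 CPM in the A226Y mice and to between 89360 and 176000 CPM in the WT mice. Of these 10 markers, 3 passed the test as higher and 2 as lower in the A226Y mice, beside 7.27% and 7.03% of all tested genes. The Kupffer cell and macrophage markers summed to between 347.5 and 1358 CPM (median 476) in A226Y and to between 523.2 and 1066 CPM (median 760) in WT livers, and of these 10 markers only *Clec4f* passed the test, being lower. Of the 8 stellate cell markers *Col1a1* and *Col3a1* fell, although the markers summed to a higher median in A226Y (418 CPM, 370.3 to 443.2) than in WT livers (372 CPM, 354 to 438.1). None of the sinusoidal endothelial (8), cholangiocyte (6), lymphocyte (9) or neutrophil (5) markers passed the test, although only 2 of the neutrophil markers were tested. No marker was at 0 in all mice. A226Y replicate 29 had the highest Kupffer and neutrophil sums (1358 and 45.16 CPM) and the lowest hepatocyte sum. The lymphocyte markers summed to 668 CPM in WT replicate 33 and to 350.3 CPM in WT replicate 13, against a WT median of 60.9 CPM. In the A226Y mice they summed to between 47.61 and 255.7 CPM (median 71.1). The part of cell composition in the values below was not tested.

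Few of the tRNA modification enzymes differed in expression between the genotypes. In the A226Y liver, 2 of 46 genes rose and 0 fell (adjusted p under 0.05, edgeR's quasi-likelihood test), which is 4.35% of the members, while 14.3% of all tested genes passed (7.27% higher and 7.03% lower). The genes that rose were *Nsun2*, the main cytosine-5 methyltransferase of cytosolic tRNA, by 14.3%, and *Trmt6*, the RNA-binding subunit of the enzyme that methylates adenosine in the T loop, by 19.5%. DESeq2 and limma-voom also called these genes and no other member, whereas with 4 surrogate variables as covariates 0 members and 50 of all 13353 genes were called, and *Trmt6* alone lost its call with an offset for GC content or with no filter beyond 1 count. At an unadjusted p under 0.05, 4 members were higher and 3 lower, or 15.2% of the members beside 29.6% of all tested genes. Fitted differences were positive for 25 members and negative for 21, with a median log2 fold change of 0.00497 (−0.00443 over all tested genes) and a range of −0.21 to 0.38. The sign of this median changed with the processing (−0.0324 to 0.0453 over the alternatives other than leaving out mice). The genotypes overlapped in CPM for each of the 46 genes (0 without overlap, against 0.637% of all tested genes).

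**Figure D1:**
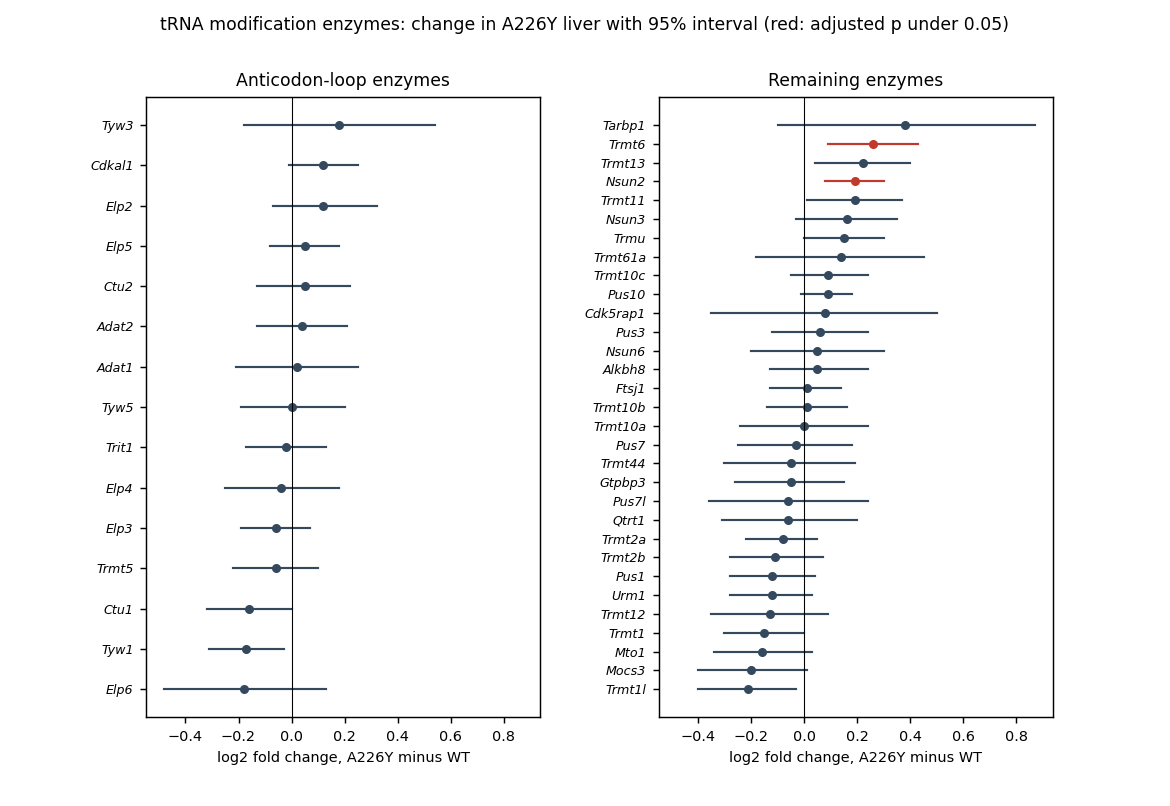
Log2 fold change (A226Y minus WT, x axis) of the 46 tested enzymes with its 95% confidence interval (bars), n = 10 A226Y and 8 WT mice, with anticodon-loop enzymes on the left and the remaining enzymes on the right. Red marks *Nsun2* (0.19) and *Trmt6* (0.26), the genes with an adjusted p under 0.05, and the widest interval is that of *Tarbp1* (−0.10 to 0.87).

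The size of the differences could be bounded. The 95% confidence interval of the log2 fold change lay between −0.5 and 0.5 for 44 of 46 members (95.7%), a bound chosen after the values were seen, and for 68.6% of all tested genes. The exceptions were *Tarbp1* (−0.10 to 0.87) and *Tyw3* (−0.18 to 0.54), which had the lowest counts of the set, down to 26 and 29 per mouse. All tested genes reach down to lower mean levels (0.182 CPM) than the members (1.73 CPM). The share of intervals within the bound was not taken for genes of similar level. The median absolute log2 fold change was 0.0903 for the members and 0.123 for the 9675 tested genes in the same range of mean CPM, of which 14.4% passed the test. The median coefficient of variation between mice was 12.5% in the A226Y and 11.2% in the WT group for the members, 12.8% and 12.4% for the tested genes in the same range of mean CPM, and 14.2% and 13.8% for all tested genes. Summed over the 46 genes, expression lay between 563.6 and 611.4 CPM in the A226Y mice (median 592.5) and between 558 and 604.6 CPM in the WT mice (median 586.7).

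**Figure D2:**
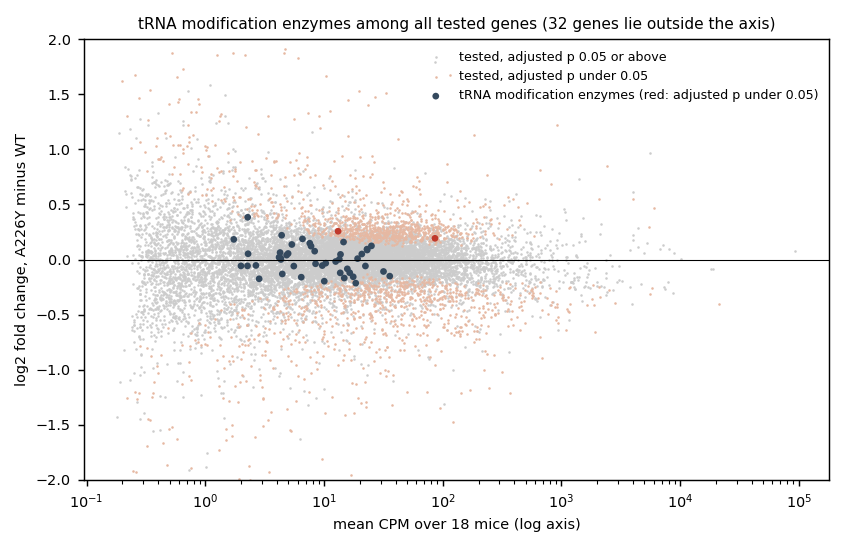
Log2 fold change (A226Y minus WT, y axis) against mean CPM over 18 mice (x axis, log scale) for 13353 tested genes in grey, with those of adjusted p under 0.05 in pale red and the 46 enzymes as large points (red for an adjusted p under 0.05); 32 genes lie outside the y axis. The enzymes lie close to 0, between −0.21 and 0.38, over mean levels of 1.73 to 85.9 CPM.

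*Nsun2* (chr13:69533746-69635780, plus strand), whose product methylates cytosines in the variable loop and in the anticodon loop of a few tRNAs, was between 82.5 and 105 CPM in the A226Y mice (median 88.6) and between 72.7 and 86.7 CPM in the WT mice (median 79). Of the 10 A226Y mice, 8 lay above the highest WT mouse and 10 above the WT median. The log2 fold change was 0.19 ± 0.05 (SE, 95% interval 0.08 to 0.30, adjusted p = 0.0205). The highest value belonged to A226Y replicate 29, and without that mouse the log2 fold change was 0.17 (adjusted p = 0.0194). With 4 surrogate variables it was 0.14 (adjusted p = 0.33), which ends the call. Of the exon bases of *Nsun2*, 2.9% are shared with the opposite-strand gene *Tent4a*, whose log2 fold change was −0.05. A larger share (8.2%) is held in common with the opposite-strand *Gm17108*, which was not among the genes counted. The other cytosine-5 methyltransferases did not pass the test. *Nsun3*, which acts on the wobble cytosine of mitochondrial methionine tRNA, had medians of 15.7 CPM (A226Y) and 13.5 CPM (WT) and a log2 fold change of 0.16 ± 0.09. *Nsun6*, which acts on the acceptor end of a few tRNAs, had medians of 2.49 and 2.27 CPM and a log2 fold change of 0.05 ± 0.12.

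*Trmt6* (chr2:132804207-132816055, minus strand) was between 10.5 and 16.8 CPM in the A226Y mice (median 14.5) and between 10.1 and 13.5 CPM in the WT mice (median 11.8). The A226Y mice were above the highest WT mouse in 8 of 10 cases, while replicate 22, the lowest, lay within the WT range. The log2 fold change was 0.26 ± 0.08 (SE, 95% interval 0.09 to 0.43, adjusted p = 0.0395). Leaving out single mice moved the log2 fold change between 0.23 and 0.30 and the adjusted p between 0.0102 and 0.0815, and the call was lost in 12 of 18 cases (without A226Y replicate 3, 7, 11, 15, 18, 23 or 32 and without WT replicate 6, 13, 21, 24 or 33). The call was also lost with 4 surrogate variables (0.18, adjusted p = 0.354), with the GC offset (0.21, adjusted p = 0.0837) and with no filter beyond 1 count (0.26, adjusted p = 0.0517). Its catalytic partner *Trmt61a* was between 3.75 and 8.46 CPM in the A226Y mice (median 5.49) and between 3.89 and 7.73 CPM in the WT mice (median 4.69), with a log2 fold change of 0.14 ± 0.15 (95% interval −0.18 to 0.45, adjusted p = 0.583). The genotypes of *Trmt61a* overlapped over nearly their whole ranges. Per kilobase of exon, the level of *Trmt6* divided by that of *Trmt61a* had a median of 1.17 in the A226Y mice (0.828 to 1.75) and of 1.16 in the WT mice (0.663 to 1.42).

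**Figure D3:**
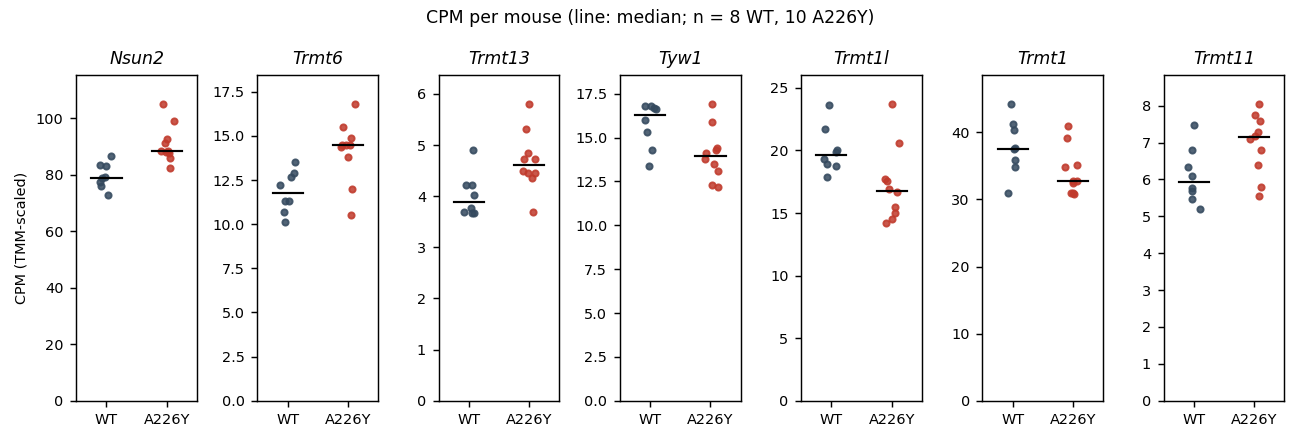
Expression in CPM (y axis, from 0) of the 7 enzymes with an unadjusted p under 0.05, for each of 8 WT (blue) and 10 A226Y (red) mice, with lines at the medians. For *Nsun2* and *Trmt6* most A226Y mice lie above the WT mice, and for *Trmt1l* 8 of 10 A226Y mice lie below the lowest WT mouse while A226Y replicate 7 is the highest of all mice at 23.7 CPM.

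The other enzymes that methylate bases in the body of the tRNA were grouped without *Trmt6*, *Trmt61a* and the cytosine-5 methyltransferases described above. The called *Nsun2* and *Trmt6* therefore lie outside this group by its definition. Of its 8 genes, 0 passed the test (also with DESeq2 and limma-voom) beside 14.3% of all tested genes. An unadjusted p under 0.05 was found for 3 of them (37.5%, against 29.6% of all tested genes). *Trmt1l* (chr1:151428542-151458161), a paralogue of the dimethylguanosine enzyme *Trmt1*, was between 14.2 and 23.7 CPM in the A226Y mice (median 16.8) and between 17.9 and 23.6 CPM in the WT mice (median 19.6). Of the A226Y mice, 8 lay below the lowest WT mouse, but replicate 7 was the highest of all mice. The log2 fold change was −0.21 ± 0.09 (adjusted p = 0.109), and it was −0.28 (adjusted p = 0.0247) without replicate 7 and −0.27 (adjusted p = 0.0446) with the GC offset. *Trmt1* itself (chr8:84686307-84699808), which makes dimethylguanosine at the junction of the D and anticodon stems, was between 30.8 and 41.0 CPM (median 32.7) in the A226Y mice and between 31.0 and 44.2 CPM (median 37.5) in the WT mice. The ranges nearly coincided, and the log2 fold change was −0.15 ± 0.07 (adjusted p = 0.156). *Trmt11* (chr10:30534225-30600749), which methylates a guanosine in the D stem, was between 5.55 and 8.04 CPM (median 7.14) in the A226Y mice and between 5.21 and 7.47 CPM (median 5.93) in the WT mice. Of the A226Y mice 3 lay above the highest WT mouse, and the log2 fold change was 0.19 ± 0.09 (adjusted p = 0.157). It was 0.11 (adjusted p = 0.686) with 4 surrogate variables and 0.12 (adjusted p = 0.32) with the GC offset. The uridine methyltransferases of the T loop had log2 fold changes of −0.08 ± 0.06 for *Trmt2a* and −0.11 ± 0.08 for the mitochondrial *Trmt2b*. The purine methyltransferases *Trmt10a* and *Trmt10b* had log2 fold changes of 0.00 ± 0.12 and 0.01 ± 0.07. *Trmt10c*, which is also a subunit of mitochondrial RNase P, had a log2 fold change of 0.09 ± 0.07, with medians of 24 CPM (A226Y) and 21.7 CPM (WT).

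None of the 15 anticodon-loop enzymes passed the test by edgeR, DESeq2 or limma-voom, and 1, *Tyw1*, had an unadjusted p under 0.05 (6.67%), against 14.3% and 29.6% of all tested genes by these thresholds. *Tyw1* passed with an offset for exon length (−0.21, adjusted p = 0.0417) and without A226Y replicate 29. The median log2 fold change of the 15 enzymes was 0.00189 with a range of −0.18 to 0.18, and that of the other 31 enzymes was 0.00804 with a range of −0.21 to 0.38, of which 2 passed (6.45%) and 19.4% had an unadjusted p under 0.05. The difference between these subsets was not tested. In a wider list, with members that act on the anticodon loop of some tRNAs outside the rule (*Ftsj1*, *Alkbh8*, *Urm1*, *Mocs3*, *Trmu*, *Mto1*, *Gtpbp3*, *Cdk5rap1*, *Qtrt1*, *Nsun2*, *Nsun3*, *Trmt12*, *Pus3* and *Pus7*), 1 of 29 tested genes passed (3.45%), which was *Nsun2*.

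Elongator carries out the first step of wobble uridine modification in cytosolic tRNA, with Elp3 as its catalytic subunit, Elp2 in the scaffold and Elp4, Elp5 and Elp6 in an accessory ring. None of the 5 subunits passed the test (14.3% of all tested genes did), and none had an unadjusted p under 0.05 (29.6% of all tested genes), and at these shares a count of 0 among 5 genes says little about Elongator. *Elp3* was between 18.9 and 26.4 CPM in the A226Y mice (median 21.9) and between 19.3 and 24.8 CPM in the WT mice (median 23.3), a log2 fold change of −0.06 ± 0.06. *Elp2* was between 21.6 and 34.1 CPM (median 24.9) and between 18.9 and 29.7 CPM (median 23) in the same order (0.12 ± 0.09). The genotypes overlapped broadly for each of them. The ring subunits had log2 fold changes of −0.04 ± 0.10 (*Elp4*), 0.05 ± 0.06 (*Elp5*) and −0.18 ± 0.15 (*Elp6*). Per kilobase of exon *Elp5* (9.06 CPM per kb) and *Elp3* (7.43 CPM per kb) were high and *Elp6* (0.988 CPM per kb) was low, and *Elp3* exceeded *Elp6* by a median of 7.99-fold in the A226Y and 7.61-fold in the WT mice.

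None of the 5 genes that thiolate and complete the wobble uridine of cytosolic tRNA passed the test (14.3% of all tested genes) or had an unadjusted p under 0.05 (29.6%), with negative values for 3 and positive values for 2. *Ctu1*, which transfers the sulfur, was between 5.01 and 6.82 CPM in the A226Y mice (median 6.27) and between 6.04 and 8.03 CPM in the WT mice (median 6.76), and 4 of 10 A226Y mice lay below the lowest WT mouse. Its log2 fold change was −0.16 ± 0.08 (adjusted p = 0.169). Its partner *Ctu2* had a log2 fold change of 0.05 ± 0.08, but 47.3% of its exon bases are shared with the opposite-strand gene *Piezo1*, so its counts are uncertain. *Urm1*, the sulfur carrier, and *Mocs3*, which activates it, had log2 fold changes of −0.12 ± 0.07 and −0.20 ± 0.10. *Mocs3* was between 7.07 and 12.6 CPM in the A226Y mice (median 9.22) and between 8.63 and 12.0 CPM in the WT mice (median 11.1), with replicate 29 the only A226Y mouse above the WT range and 9 of 10 A226Y mice below the WT median. *Alkbh8*, which completes the side chain, had a log2 fold change of 0.05 ± 0.09.

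At the purine on the 3′ side of the anticodon, *Tyw1* (chr5:130255619-130341563), which builds the tricyclic core of wybutosine in phenylalanine tRNA, was between 12.2 and 16.9 CPM in the A226Y mice (median 13.9) and between 13.4 and 16.8 CPM in the WT mice (median 16.3). Of the A226Y mice 9 of 10 lay below the WT median, 3 lay below the lowest WT mouse, and replicate 29 lay above the highest. The log2 fold change was −0.17 ± 0.07 (adjusted p = 0.0995), and −0.20 (adjusted p = 0.0302) without replicate 29. *Trmt5*, which makes the methylguanosine that wybutosine is built from, had a log2 fold change of −0.06 ± 0.08, and the later enzymes *Trmt12*, *Tyw3* and *Tyw5* had values of −0.13 ± 0.11, 0.18 ± 0.17 and 0.00 ± 0.09. *Trit1*, the isopentenyltransferase of adenosine at the same position, had medians of 12.9 CPM (A226Y) and 12.3 CPM (WT) and a log2 fold change of −0.02 ± 0.07. *Cdkal1*, which adds a thiomethyl group to lysine tRNA and is known as a type 2 diabetes risk gene, was between 7.44 and 8.64 CPM in the A226Y mice (median 8.07) and between 6.67 and 8.44 CPM in the WT mice (median 7.35). All 10 A226Y mice lay above its WT median, but only 2 above the highest WT mouse, and the log2 fold change was 0.12 ± 0.06 (adjusted p = 0.188). The adenosine deaminases *Adat1* and *Adat2*, which make inosine, had log2 fold changes of 0.02 ± 0.11 and 0.04 ± 0.08.

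None of the 7 tested enzymes that act only on mitochondrial tRNA passed the test, and none had an unadjusted p under 0.05, against 14.3% and 29.6% of all tested genes. *Mto1*, which with *Gtpbp3* adds the taurine-derived group to the mitochondrial wobble uridine, was between 11.2 and 19.3 CPM in the A226Y mice (median 17.2) and between 14.9 and 20.6 CPM in the WT mice (median 19.6). All 10 A226Y mice were below the WT median, but only 2 were below the lowest WT mouse, and the log2 fold change was −0.16 ± 0.09 (adjusted p = 0.248). *Gtpbp3* and the thiouridylase *Trmu* had log2 fold changes of −0.05 ± 0.10 and 0.15 ± 0.07. *Cdk5rap1*, which adds the thiomethyl group in mitochondria, had a lower median in the A226Y mice (6.88 CPM) than in the WT mice (8.03 CPM) but a positive log2 fold change of 0.08 ± 0.20. A226Y replicates 11 and 22 reached 15.5 and 15.1 CPM, whereas the WT mice lay between 6.41 and 10 CPM.

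Among the ribose methyltransferases, *Trmt13* (chr3:116581093-116614587), which acts in the acceptor stem, was between 3.69 and 5.80 CPM in the A226Y mice (median 4.61) and between 3.67 and 4.90 CPM in the WT mice (median 3.90). Of the A226Y mice 9 of 10 were above the WT median but only 2 above the highest WT mouse. The log2 fold change was 0.22 ± 0.09 (adjusted p = 0.0931). It passed the test without WT replicate 6, the highest WT mouse (0.27, adjusted p = 0.0375), or without A226Y replicate 5, the lowest A226Y mouse (0.25, adjusted p = 0.0467), while with 4 surrogate variables the log2 fold change was 0.03 (adjusted p = 0.914). Exon bases of *Trmt13* are shared with the opposite-strand genes *Lrrc39* (13.4%) and *Sass6* (6.3%), whose log2 fold changes were 0.24 (adjusted p = 0.125) and 0.11 (adjusted p = 0.713). *Tarbp1*, which acts in the D loop, had the largest fitted value of the set (0.38 ± 0.23, adjusted p = 0.277), with 1.09 to 3.79 CPM in the A226Y and 0.953 to 2.90 CPM in the WT mice. *Ftsj1*, a gene of intellectual disability in humans whose product acts in the anticodon loop, and *Trmt44* of serine tRNA had log2 fold changes of 0.01 ± 0.06 and −0.05 ± 0.12. *Qtrt1*, the catalytic subunit that inserts queuine, had a value of −0.06 ± 0.12.

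None of the 5 pseudouridine synthases passed the test, and none had an unadjusted p under 0.05, beside 14.3% and 29.6% of all tested genes. *Pus10* was between 21.4 and 25.3 CPM in the A226Y mice (median 24) and between 20.6 and 23.8 CPM in the WT mice (median 22.4). Of the A226Y mice 6 were above the highest WT mouse, and the log2 fold change was 0.09 ± 0.05 (95% interval −0.01 to 0.18, adjusted p = 0.215). *Pus1*, which acts in the nucleus and in mitochondria, had a log2 fold change of −0.12 ± 0.07, *Pus7* of −0.03 ± 0.10 and *Pus7l* of −0.06 ± 0.14. Of the exon bases of *Pus1*, 23.8% are shared with *Gm26515* and 6.3% with *Gm15559*. Both lie on the opposite strand and were not among the genes counted, so the level of *Pus1* is uncertain. *Pus3*, which acts in the anticodon stem and loop, had a value of 0.06 ± 0.09, but 88.1% of its exon bases are shared with *Hyls1* on the opposite strand, so it is not known which gene its reads came from.

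**Figure D4:**
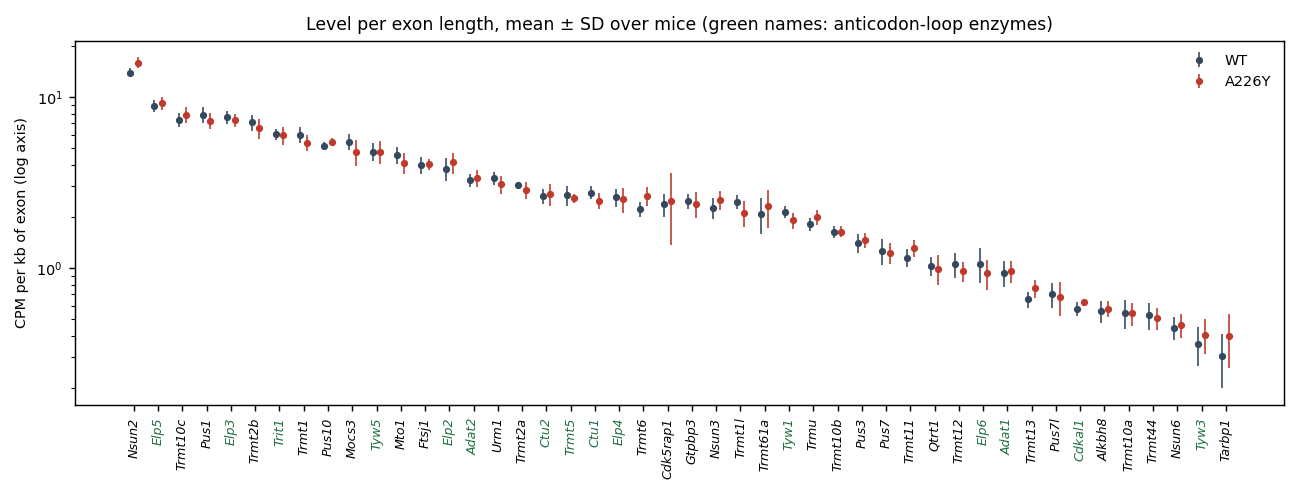
Level per exon length in CPM per kb (y axis, log scale), mean ± SD over 8 WT (blue) and 10 A226Y (red) mice, for the 46 enzymes in order of their mean over all mice (green names: anticodon-loop enzymes). *Nsun2* is highest at 15 CPM per kb and *Tarbp1* lowest at 0.356 CPM per kb.

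Levels between genes were compared per kilobase of exon. *Nsun2* was the highest of the 46 enzymes, with 15.9 ± 1.17 CPM per kb (SD, n = 10) in the A226Y and 13.9 ± 0.794 CPM per kb (SD, n = 8) in the WT mice. It was followed by *Elp5* (9.06 CPM per kb over all mice), *Trmt10c* (7.66), *Pus1* (7.54) and *Elp3* (7.43), of which the last 3 did not differ from each other beyond their SD between mice. The lowest were *Nsun6* (0.457), *Tyw3* (0.386) and *Tarbp1* (0.356). The median of all tested genes was 3.05 CPM per kb, and 16 members were above it.

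The mice differed in how often they held the extreme value of a gene. A226Y replicate 29 had the highest value of all 18 mice for 9 members and the lowest for 7. A226Y replicate 23, the most deeply sequenced library, held 7 highest and 3 lowest values, and replicate 18 held none. The sum over the members was nevertheless similar in these mice, at 611.3, 611.4 and 591.9 CPM.

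**Figure D5:**
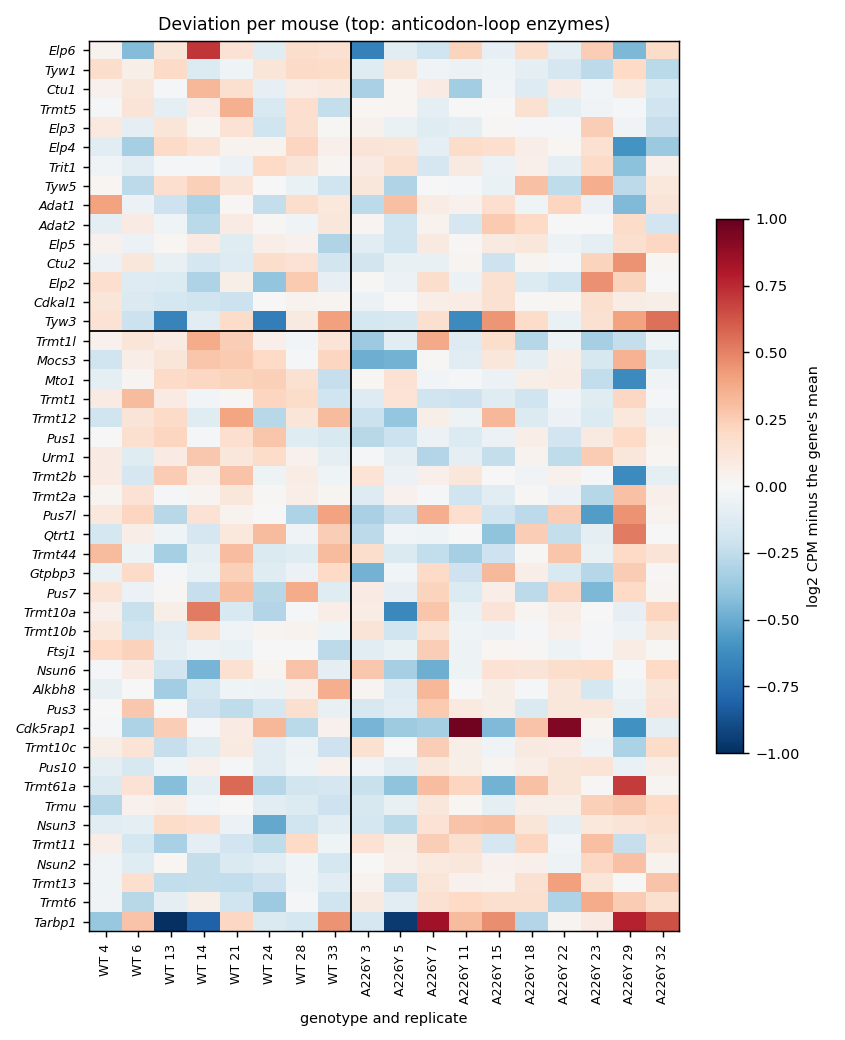
Difference of log2 CPM from the gene's mean over the mice (colour, scale from −1 to 1, with values beyond it drawn at its ends) for the 46 enzymes (rows, anticodon-loop enzymes above the line, each block in order of its log2 fold change) and 18 mice (columns, WT on the left). No block of rows separates the genotypes, and A226Y replicate 29 has many strong colours of both signs, with 16 extreme values.

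Further genes of tRNA modification outside the set were counted from a list of 40, all of which were tested. Of these, 2 rose and 3 fell (12.5%, against 14.3% of all tested genes), and the median log2 fold change was −0.0151. These calls depended on the processing, with 0 of the 40 genes called with 4 surrogate variables, 2 with the length offset, and 3 with the GC offset, with library size only or without WT replicate 24. *Thumpd3*, a guanosine methyltransferase that shares the activator *Trmt112* with *Trmt11*, was between 16.9 and 21.8 CPM in the A226Y mice (median 19.3) and between 14.7 and 18.1 CPM in the WT mice (median 16.3), and rose by a log2 fold change of 0.24 ± 0.06 (adjusted p = 0.0164). *Mettl1*, the methyltransferase of 7-methylguanosine in the variable loop, was between 7.72 and 16.5 CPM (median 10.8) and between 5.82 and 10.1 CPM (median 7.97), and rose by 0.46 ± 0.13 (adjusted p = 0.0266). The genes that fell act in different steps. *Lcmt2*, which catalyses a later step of wybutosine synthesis, was between 8.93 and 10.8 CPM in the A226Y mice (median 10.1) and between 10.2 and 12.9 CPM in the WT mice (median 11.5), a log2 fold change of −0.21 ± 0.06 (adjusted p = 0.0219). *Rpusd4*, a mitochondrial pseudouridine synthase, had medians of 6.07 and 7.29 CPM (−0.32 ± 0.09, adjusted p = 0.0192). *Nfs1*, the cysteine desulfurase that supplies sulfur for thiolation and for iron-sulfur clusters, had medians of 62.5 and 69.3 CPM (−0.16 ± 0.05, adjusted p = 0.0332). For each of these 5 genes the ranges of the genotypes overlapped.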

How the data were processed

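Total RNA of liver was sequenced (1 library per mouse, single-end reads on an Illumina instrument). The authors deposited raw counts, 1 whole number per gene and mouse, that were not normalized. How they were made is described differently by the sources. The submitters' processing notes name bcl2fastq, fastp, STAR, featureCounts, MultiQC and GRCm38, whereas the methods name RSEM with Ensembl annotations and another build of the mouse genome. Strand was treated as unknown, so reads of opposite-strand genes that overlap cannot be told apart. Identifiers were matched to GENCODE M21 (GRCm38), which gave symbols to 22214 of 22524 (310 without), and positions and exon lengths are from that annotation.

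Genes were kept where a minimum of 10 counts was reached by 50% or more of the mice in 1 genotype, and the 13353 genes left were tested with edgeR 4.0.16 (R 4.3.3), TMM scaling, the two-sided quasi-likelihood test on all 18 mice without covariates, and Benjamini-Hochberg adjustment over all tested genes. SE is the log2 fold change divided by the square root of F, and CPM used TMM-scaled library sizes. Total counts were 23850565 to 62126131 per mouse, and members with low counts (down to 26 per mouse) carry counting error that adds to the spread between mice. The common biological coefficient of variation was 0.194. The closest pair of mice within a genotype differed by a chi-square of 19.20 per degree of freedom, so none was a repeated library. No batch is named in the labels, and no paired analysis was possible because the genotypes share no replicate numbers.

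The members and lists were chosen with earlier results of these data known. Values are given in full for members with an unadjusted p under 0.05, in shorter form for other members, and for listed genes outside the set with an adjusted p under 0.05. A few members (*Mocs3*, *Mto1*, *Cdkal1*, *Pus10*, *Cdk5rap1*, *Ctu1*, *Elp2*, *Elp3* and *Tarbp1*) were described at more length after their values were seen. No set test was run. Alternatives were RLE size factors, library size only, no filter beyond 1 count, 10 counts in every sample, DESeq2 1.42.0, limma-voom 3.58.1, 4 surrogate variables (sva 3.50.0), lowess offsets (span 0.3, pseudocount 0.5, 3 iterations) on exon length or on GC content for 13300 genes, the wider anticodon-loop list, and leaving out each mouse. On simulated counts of 13353 genes, the edgeR test found 66 of 100 genes changed by a log2 fold change of 0.5 and 90 of 100 changed by 1, with 11 false calls. With 4 simulated hidden factors it found 0 of either size, and 71 and 85 of 100 with 4 surrogate variables. These factors were made unrelated to genotype and equal in number to the surrogate variables. The simulation therefore cannot show how that fit behaves where hidden factors vary with genotype. With a simulated bias on length or GC content it made 4233 and 5104 false calls among 13300 genes, and 5 and 11 with the matching offset.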

Additional observations from a re-analysis of the deposited data

Results flagged for a closer look

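For each member and *Rps2*, in each genotype, the highest and the lowest mouse were compared with the nearest other mouse by Dixon's ratio at its 95% critical value. This marked 8 of 94 groups of values examined, of which chance marks about 1 in 20. A226Y replicate 29 was highest for *Trmt2a* (19.2 CPM, next 16.2) and lowest for *Trmt2b* (20.2 CPM, next 29.3). A226Y replicate 5 was lowest for *Trmt10a* (2.73 CPM, next 4.03), and WT replicate 14 was highest for the same gene (6.12 CPM, next 4.48). WT replicate 14 was also highest for *Elp6* (4.56 CPM, next 3.13). WT replicate 6 was highest for *Trmt13* (4.9 CPM, next 4.22). A226Y replicate 23 was highest for *Elp3* (26.4 CPM, next 22.9), and A226Y replicate 7 was highest for *Ftsj1* (22.6 CPM, next 20.1).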

How the results depend on the processing

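RLE size factors, 10 counts in every sample, DESeq2 and limma-voom called *Nsun2* and *Trmt6*, the members called above, and no other member. With library size only these 2 were called as well, 3 genes of the list outside the set were called, and 67.9% of all called genes were higher (50.8% with TMM scaling), with a median of all genes of 0.0387. Without a filter beyond 1 count, 1 member was called (1 higher, 1 among the members outside the anticodon loop), since *Trmt6* had an adjusted p of 0.0517. With 4 surrogate variables, 0 members and 0 genes of the list outside the set were called (0 members higher, 0 outside the anticodon loop), 50 of all genes were called, and *Nsun2* (0.14, adjusted p = 0.33) and *Trmt6* (0.18, adjusted p = 0.354) kept their sign. With the length offset, 1 member was lower, in the anticodon loop (*Tyw1*, −0.21, adjusted p = 0.0417), and 2 genes outside the set were called. With the GC offset, 1 member was higher and 1 lower (*Trmt1l*, −0.27, adjusted p = 0.0446; *Trmt6* had 0.21, adjusted p = 0.0837), and 3 genes outside the set were called. The wider list had 1 anticodon-loop call. The causes were not tested.

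Leaving out single mice gave 1 to 3 members called (1 to 3 higher, 0 to 1 lower), 0 to 1 in the anticodon loop and 1 to 3 outside it, 3 to 6 genes outside the set and 1255 (without WT replicate 14) to 2560 (without A226Y replicate 29) of all genes. *Nsun2* was called in each of these 18 fits (adjusted p = 0.0161 to 0.0456) and *Trmt6* was lost in 12. The calls gained were *Trmt13*, *Trmt1l* and *Tyw1*, each in the fits named above. The log2 fold changes of *Rps2* and of the 7 members with an unadjusted p under 0.05 kept their sign under the alternatives run, although *Trmt13* (0.03) and *Trmt11* (0.11) were much closer to 0 with 4 surrogate variables, and the median over the members (0.00497) did not (−0.0212 to 0.0242 without single mice, −0.0324 with 4 surrogate variables). The spread between mice and, for members with low counts, counting error limit what can be seen. *Qtrt1*, for example, had 45 to 78 counts per WT mouse.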

Other observations

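Genes that overlap members on the opposite strand were read as a description of the uncertainty in the members' counts. *Cryz*, a quinone reductase gene that shares 5.6% of the exon bases of *Tyw3*, fell in the A226Y liver (61.1 to 101 CPM against 78 to 137 CPM in the WT mice, log2 fold change −0.36 ± 0.10, adjusted p = 0.0274), while *Tyw3* itself had a log2 fold change of 0.18 ± 0.17. *Dgcr8*, the microRNA processing factor that shares 15.5% of the exon bases of *Trmt2a*, had a log2 fold change of 0.19 ± 0.08 (adjusted p = 0.0981), and *Trmt2a* had −0.08 ± 0.06. *Piezo1*, a mechanosensitive channel gene, was between 7.94 and 12.4 CPM in the A226Y mice and between 6.59 and 9.58 CPM in the WT mice (0.19 ± 0.09, adjusted p = 0.157), and all 10 A226Y mice lay above its WT median. *Mttp*, the triglyceride transfer protein gene that shares 5.7% of the exon bases of *Trmt10a*, had medians of 434 and 374 CPM (0.21 ± 0.08, adjusted p = 0.101), and *Trmt10a* had 0.00 ± 0.12. *Maip1* and *Pex3*, neighbours of *Tyw5* and *Adat2*, had log2 fold changes of −0.06 ± 0.05 and 0.00 ± 0.06.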
